A study of Homo sapiens with 8 samples.

Results

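Genes that lie side by side on a chromosome can differ together between cell lines when the number of copies of the region differs or when a whole chromatin domain is opened or closed, and they can also differ gene by gene when separate factors act on each promoter. ZEB1 is a repressor that drives epithelial to mesenchymal transition (EMT) by binding E-box motifs near epithelial genes. The genes described here form a stretch on the long arm of chromosome 2 that runs from RAB3GAP1 to RPE and holds splicing factors, chaperones, transcription factors of the CREB, NRF2 and KLF families, the caspase 8 locus and housekeeping enzymes.

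The 59 genes were chosen by their low values in EMT lines against PC3-Epi, out of 19775 genes with a probe set of their own, so their difference in that comparison is a description and was not tested. CIR1 is listed in the current gene table as CIRSR. Each gene is given by its probe set with the highest mean over the 8 arrays. A gene was kept in a comparison when at least 1 of its arrays reached a log2 value of 5, which 56 of the 59 did on the untransduced arrays. GPR155, WIPF1 and CALCRL stayed under that floor. ZNF385B and KLF7 were kept only through PC3-Epi, and CYBRD1 only through the EMT lines.

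Transcripts were measured on Affymetrix arrays in derivatives of PC3, a human prostate cancer line. PC3-EMT1, -EMT12 and -EMT14 are mesenchymal populations isolated from PC3-Epi after co-culture with M2 macrophages, with 1 untransduced array each, and PC3-Epi, a luciferase-expressing epithelial subpopulation of PC3, has 1 array. PC3-EMT1 and PC3-EMT14 were also transduced with a lentiviral shRNA against ZEB1 (sh4, 2 arrays) or with a scrambled shRNA (Scr, 2 arrays), so that both sh4 and Scr cells carry a lentiviral vector and all lines descend from PC3-Epi. Cells were grown in RPMI, and the sample records give 5% serum, 2 days of recovery and 250 ng of labelled RNA for every array. The authors' methods give a higher serum share for these lines. Nothing says that arrays came from separate cultures beyond separate lines, so p-values measure the spread between these arrays, which may be technical. In EMT against PC3-Epi that spread is only the one between the 3 EMT lines. The single PC3-Epi array adds none, so its own variation is not measured. Every EMT difference below rests on that same PC3-Epi array.

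The untransduced and transduced arrays had been scaled apart, with medians of 4.33 to 4.35 and of 6.19 to 6.23. Levels were compared only within each set. The fits with 6 arrays hold both sets with condition as a term, so they compare within sets but pool the spread of both. ZEB1 was at 6.50 to 7.11 in the EMT lines and 3.08 in PC3-Epi, and sh4 lowered it by 0.74 in PC3-EMT1 and 1.07 in PC3-EMT14 on the log2 scale. CDH1, which encodes E-cadherin, stood at 3.07 to 4.00 in the EMT lines, against 11.31 in PC3-Epi, and was 4.02 and 3.85 higher with sh4 than with Scr. Of 15 macrophage markers, 2 exceeded the brightest bacterial control probe set on each untransduced array, and PTPRC, CD14 and CSF1R did not. On the transduced arrays 4 to 5 of the 15 exceeded it. CSF1R was among these, at 6.71 to 6.79 against a maximum of 6.0, while PTPRC and CD14 were not. The gap between the 3′ and 5′ probe sets of ACTB, a sign of RNA quality, was 1.29 in PC3-EMT1, 1.62 in PC3-EMT12 and 1.27 in PC3-EMT14, against 1.63 in PC3-Epi. It was 1.44 and 2.22 in the sh4 arrays of PC3-EMT1 and PC3-EMT14, against 1.68 and 1.42 in their Scr arrays.

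The stretch was lower in all mesenchymal lines, and the size of the difference varied between genes. The median log2 difference over the 56 members was -0.91 in PC3-EMT1, -0.55 in PC3-EMT12 and -0.95 in PC3-EMT14, which are levels 1.88-fold, 1.47-fold and 1.93-fold below PC3-Epi. Over all 11921 genes kept, the 3 medians were 0.07, 0.04 and 0.08. Members lower in every line numbered 49 of 56, or 87.5%, where 36.7% of all genes kept were. At least 2-fold lower in every line were 5 members, where 4.9% of all genes kept were. These counts follow from how the genes were chosen. In bulk RNA, fewer cells with a transcript and less transcript per cell cannot be told apart.

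**Figure D1:**
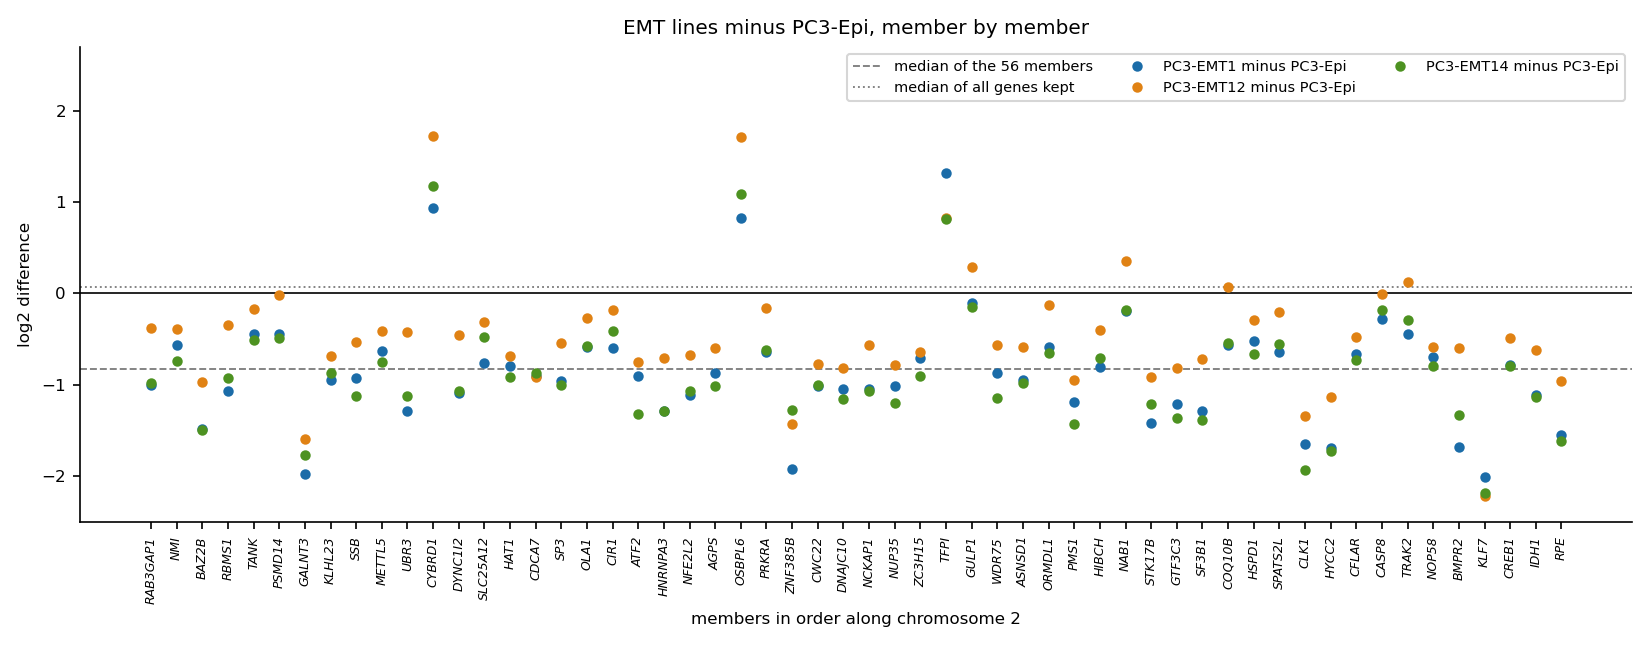
Log2 difference of each of the 3 EMT lines minus PC3-Epi (y axis) for the 56 members kept, in their order along chromosome 2 (x axis); each point is 1 array against the PC3-Epi array, and the lines mark the medians of the members and of all genes kept. Of the members, 26 have a mean between -1 and -0.5 and 14 a mean below -1, CYBRD1, OSBPL6 and TFPI lie above 0, and the PC3-EMT12 point is usually the highest of the 3.

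The members that stood 2-fold below PC3-Epi in every line were KLF7, GALNT3, CLK1, ZNF385B and HYCC2. KLF7, a Krüppel-like transcription factor, had 4.66, 4.46 and 4.49 in PC3-EMT1, -EMT12 and -EMT14, against 6.68 in PC3-Epi, a mean difference of -2.14 ± 0.11 (SD, n = 3 lines). GALNT3, an enzyme that starts mucin-type O-glycosylation in epithelial cells, had 7.85, 8.23 and 8.06 in the same lines, against 9.83 in PC3-Epi, a mean of -1.78 ± 0.19. CLK1, a kinase of the SR splicing factors, had 5.20, 5.51 and 4.92 in the EMT lines, against 6.85 in PC3-Epi, a mean of -1.65 ± 0.30. In each of these genes the 3 EMT values lay well under the PC3-Epi value and close to one another.

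HYCC2, a relative of hyccin, had 4.75, 5.31 and 4.71 in PC3-EMT1, -EMT12 and -EMT14, against 6.44 in PC3-Epi, a mean difference of -1.51 ± 0.34. ZNF385B, a zinc finger protein, had 3.86, 4.35 and 4.51 in the EMT lines, against 5.78 in PC3-Epi. Its EMT values were within the range of the bacterial control probe sets, which reached 4.56, so its mean of -1.54 compares a dim signal with one close to background. The EMT values of KLF7 lay near the top of that range. Just outside the limit were BAZ2B and RPE, whose differences in PC3-EMT12 were -0.97 and -0.96. BAZ2B, a bromodomain protein, had a mean of -1.32 ± 0.30, and RPE, an epimerase of the pentose phosphate pathway, a mean of -1.37 ± 0.36. RPE had 8.00, 8.59 and 7.93 in the EMT lines, against 9.55 in PC3-Epi.

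Transcription and chromatin genes formed the group with the lowest median, -0.93 over 12 members, of which 11 were lower in every line. CREB1, which carries the response to cyclic AMP, had 7.00, 7.30 and 6.99 in PC3-EMT1, -EMT12 and -EMT14, against 7.79 in PC3-Epi. Its relative ATF2 had 6.19, 6.36 and 5.79 in the EMT lines, against 7.10 in PC3-Epi. NFE2L2, the NRF2 factor of the oxidative stress response, had 8.36, 8.79 and 8.40 in the EMT lines, against 9.47 in PC3-Epi, a mean difference of -0.95 ± 0.24. All 3 factors were lower in each line, and the exception in the group was NAB1, a corepressor of EGR factors, with 7.39, 7.94 and 7.40 in the EMT lines, against 7.58 in PC3-Epi.

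RNA processing and ribosome assembly genes were the most even group by interquartile range, 0.29, with all 11 members lower in every line. Their median was -0.86 and their range -1.65 to -0.47. SF3B1, a core subunit of the U2 spliceosome particle, had 10.04, 10.61 and 9.93 in PC3-EMT1, -EMT12 and -EMT14, against 11.33 in PC3-Epi, a mean of -1.13 ± 0.36. HNRNPA3, a binding protein of nuclear RNA, had 8.41, 8.99 and 8.41 in the EMT lines, against 9.70 in PC3-Epi. NOP58, a core protein of box C/D small nucleolar particles, had 9.76, 9.86 and 9.66 in the EMT lines, against 10.46 in PC3-Epi. These are bright genes whose EMT values never reached the PC3-Epi value.

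Protein folding, turnover and modification genes had a median of -0.84, with 7 of 7 members lower in every line. HSPD1, the mitochondrial chaperonin, had 12.90, 13.14 and 12.77 in PC3-EMT1, -EMT12 and -EMT14, against 13.43 in PC3-Epi, a mean of -0.49 ± 0.19. PSMD14, the deubiquitinase of the proteasome lid, was the least changed of the group, with 11.88, 12.31 and 11.84 in the EMT lines, against 12.33 in PC3-Epi. In PC3-EMT12 it was 0.02 below PC3-Epi. UBR3, a ubiquitin ligase, was among the members farthest apart between lines, with differences of -1.29 in PC3-EMT1, -0.42 in PC3-EMT12 and -1.12 in PC3-EMT14.

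Metabolic, mitochondrial and repair genes had a median of -0.83 over 9 members, 8 of them lower in every line. IDH1, the cytosolic isocitrate dehydrogenase, had 10.42, 10.92 and 10.40 in PC3-EMT1, -EMT12 and -EMT14, against 11.53 in PC3-Epi, a mean of -0.95 ± 0.29. PMS1, a mismatch repair protein, had 5.95, 6.19 and 5.71 in the EMT lines, against 7.14 in PC3-Epi, a mean of -1.19 ± 0.24. The exception was COQ10B, a coenzyme Q binding protein, whose differences were -0.57, 0.07 and -0.54.

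Death, immune and growth factor signalling genes had a higher median, -0.56 over the 7 of 8 kept. BMPR2, the type II receptor of bone morphogenetic proteins, had 5.72, 6.81 and 6.07 in PC3-EMT1, -EMT12 and -EMT14, against 7.40 in PC3-Epi, a mean of -1.20 ± 0.56. Its lines were far apart, since PC3-EMT12 was 0.91 above the mean of the other lines. STK17B, a kinase linked to apoptosis, had 6.07, 6.57 and 6.28 in the EMT lines, against 7.49 in PC3-Epi. The neighbouring death receptor genes CFLAR, which encodes the caspase 8 inhibitor c-FLIP, and CASP8 differed in size, with means of -0.62 ± 0.13 and -0.16 ± 0.14. TFPI, the inhibitor of the tissue factor pathway, went the other way, with 9.79, 9.30 and 9.30 in the EMT lines, against 8.47 in PC3-Epi, a mean of 0.99 ± 0.28.

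Trafficking, cytoskeleton and membrane genes were the most mixed group, with 6 of the 10 kept lower in every line, a median of -0.63 and a range of -1.51 to 1.28. CYBRD1, a ferric reductase, had 5.28, 6.08 and 5.53 in PC3-EMT1, -EMT12 and -EMT14, against 4.34 in PC3-Epi, a mean of 1.28 ± 0.41 in which the PC3-Epi value lies under the brightest bacterial control of that array, 4.43. OSBPL6, an oxysterol-binding relative, had 7.31, 8.19 and 7.57 in the EMT lines, against 6.48 in PC3-Epi, a mean of 1.21 ± 0.45. GULP1, an adaptor of engulfment, had 9.41, 9.80 and 9.36 in the EMT lines, against 9.51 in PC3-Epi, so that its EMT values lay on both sides of PC3-Epi. DYNC1I2, a chain of the dynein motor, had 9.61, 10.24 and 9.63 in the EMT lines, against 10.70 in PC3-Epi, close to the median of all members.

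**Figure D2:**
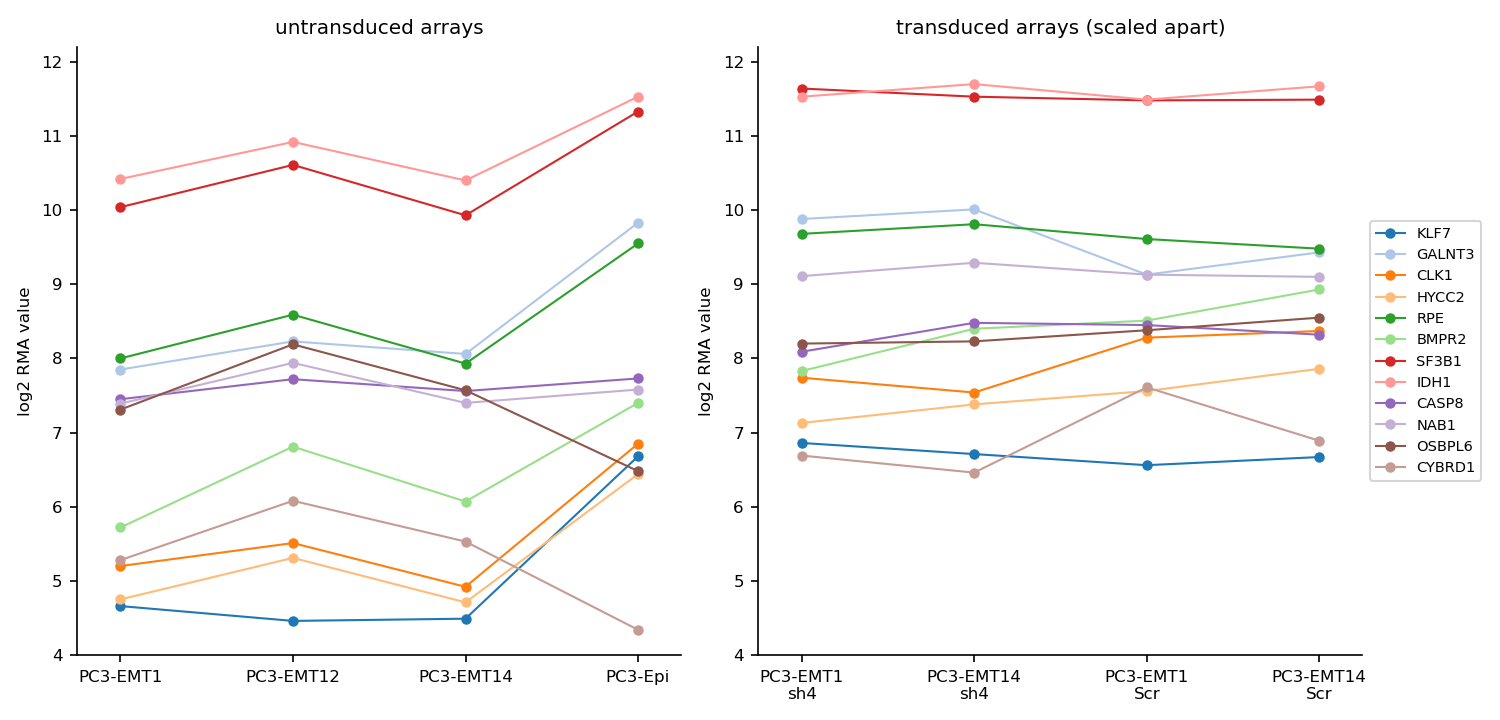
Log2 RMA values (y axis) of 12 members on the 4 untransduced arrays (left) and the 4 transduced arrays (right), which were scaled apart and cannot be compared with each other; each coloured line joins 1 gene's arrays. On the left KLF7, CLK1 and RPE are lower in the EMT lines than in PC3-Epi while OSBPL6 and CYBRD1 are higher, and on the right SF3B1 and IDH1 are nearly level.

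Most members have further probe sets, which gives a second reading of the same RNA. Of 69 further probe sets at or above the floor, from 35 members, 60, or 87.0%, were lower on average in the EMT lines, where 49.6% of such probe sets of all genes were. With the dimmer ones included, 96 of 130 were lower. Kept members with any further probe set, dim ones included, of the opposite sign to the main one were RAB3GAP1, GALNT3, METTL5, UBR3, SP3, ATF2, NFE2L2, GULP1, PMS1, NAB1, STK17B, COQ10B, HSPD1, SPATS2L, CFLAR, BMPR2 and RPE. The second probe set of GALNT3 differed by 0.04, and the highest of SPATS2L, a stress granule protein, by 0.92 where its main probe set differed by -0.47. With the mean of all probe sets the difference of GALNT3 became -0.87, that of UBR3 -0.36, that of RPE -0.84, that of BMPR2 -0.61 and that of STK17B -0.74, while KLF7 stood at -1.58. Adding 32 before the logarithm, which shrinks differences of dim genes, gave -1.28 for KLF7, -1.09 for CLK1, -0.92 for HYCC2, -0.77 for ZNF385B, -0.78 for BAZ2B and 0.65 for CYBRD1.

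The difference was present from end to end of the stretch but was not of 1 size. In 5 consecutive blocks of members the medians were -0.78 from RAB3GAP1 to CYBRD1, -0.83 from DYNC1I2 to AGPS, -0.86 from OSBPL6 to WDR75, -0.64 from ASNSD1 to SPATS2L and -0.95 from CLK1 to RPE. Within a block the members spread more widely than the blocks did, with a range of -1.54 to 1.21 in the block from OSBPL6 to WDR75. Of the 56 members, 25 lay within 0.25 of the median, 14 were below -1, 26 lay between -1 and -0.5, 12 between -0.5 and 0, and 4 at or above 0. The SD between members was 0.62, against a median SD of 0.25 between the 3 lines within a member. Over all genes kept the SD between genes was 0.78, and over all 170 kept genes of the stretch it was 0.77. The members were chosen by this same difference, which narrows their spread, so their smaller SD is not a result about the stretch. Next neighbours on the member list differed by a median of 0.41, close to the 0.45 of all pairs of members.

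The genes between the members showed the same tendency with a wider spread. The stretch holds 318 measured genes, of which 170 were kept, with a median of -0.71 and 140 lower in every line. The 114 that are not members had a median of -0.67, between -3.43 and 2.12, and by limma 55 were lower and 5 higher at an adjusted p below 0.05, where 15.4% of all genes kept were lower and 13.9% higher. The ends of the stretch were set by the same comparison, so these counts are not independent evidence of a low region. They also include genes that passed the floor on 1 side only. KIF5C, FIGN, STAT4 and DNAH7, called lower, were kept only through PC3-Epi. ZNF804A, called higher, was kept only through the EMT lines. Fewer were called lower without PC3-EMT14, but the share of all genes called in that fit is not given.

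Among those neighbours, KIF5C and HNMT were lower by more than any member. KIF5C, a neuronal kinesin, had 4.31, 4.67 and 4.73 in PC3-EMT1, -EMT12 and -EMT14, against 8.00 in PC3-Epi, a difference of -3.43 ± 0.20 (SE of the limma fit). It was kept only through PC3-Epi. Its EMT values lay near the bacterial maximum of 4.56, so its fold is not measured on both sides. HNMT, which inactivates histamine, differed by -2.73 ± 0.36 (adjusted p = 0.00575), and the Wnt receptors FZD7 and FZD5 by -2.09 ± 0.43 and -2.0 ± 0.20 (adjusted p = 0.0196 and 0.00249). The EMT values of FZD7, 4.65, 3.84 and 5.02, also lay near the bacterial maximum. SCRN3 and ITGAV, the integrin alpha V chain, followed at -1.79 and -1.76.

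Other neighbours had higher values in the EMT lines. INPP1, HOXD-AS2, UBBP1 and FKBP7 were called higher by limma, from PC3-Epi values of 8.06, 7.14, 6.31 and 5.25. Their differences were 0.83, 0.8, 0.66 and 0.91. At least 2-fold higher in every EMT line were ZNF804A, CXCR4 and CSRNP3, which were kept only through the EMT lines. The PC3-Epi values of these genes lay under the brightest bacterial control of that array, 4.43, so that their folds are not measured on both sides. ZNF804A had 5.67, 6.74 and 6.10 in PC3-EMT1, -EMT12 and -EMT14, against 4.40 in PC3-Epi. CXCR4, the receptor of the chemokine CXCL12, had 4.92, 4.46 and 6.89 in the EMT lines, against 3.30 in PC3-Epi, and did not pass the test (adjusted p = 0.119). Its PC3-EMT12 value too lay under the bacterial maximum of that array, 4.56. CSRNP3 had 3.63, 5.33 and 4.07 in the EMT lines, against 2.39 in PC3-Epi, above the bacterial maximum only in PC3-EMT12.

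Some neighbours start close together on opposite strands and could share a promoter region. Of 12 such pairs of kept genes, whose start sites in the RefSeq promoter table lie within 1000 bases, 10 had both genes lower, or 83.3%, where 76.8% of all pairs of kept genes in the stretch did, and the genes of a pair differed by a median of 0.35, against 0.60 for all pairs of kept genes in the stretch. HSPD1 and HSPE1, which encode the mitochondrial chaperonin and its lid, differed from PC3-Epi by -0.49 and -0.67. ORMDL1 and PMS1 differed by -0.45 and -1.19. IDH1 stood at -0.95 and its antisense transcript IDH1-AS1 at 0.08, and CIR1 at -0.40 beside SCRN3. IDH1-AS1 was dim, at 4.88 to 5.45 on the untransduced arrays, near the floor. Whether the probe sets separate overlapping antisense transcripts was not tested.

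Along chromosome 2 the stretch appeared as a long low plateau whose ends were not sharp at the listed members. Running medians of 31 neighbouring kept genes lay between -0.99 and -0.68 in PC3-EMT1, between -0.66 and -0.23 in PC3-EMT12 and between -0.98 and -0.58 in PC3-EMT14 for the 140 windows inside the stretch. The 30 kept genes before RAB3GAP1 had a median of -0.19 and the 30 after RPE -0.02. Past RPE, however, the next 4 kept genes, CPS1, IKZF2, SPAG16 and BARD1, were lower still or as low, at -1.51, -2.55, -1.29 and -1.07. Windows on the rest of chromosome 2 went down to -0.72, -0.46 and -0.82 in the 3 lines, near AHSA2P and BCL11A.

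**Figure D3:**
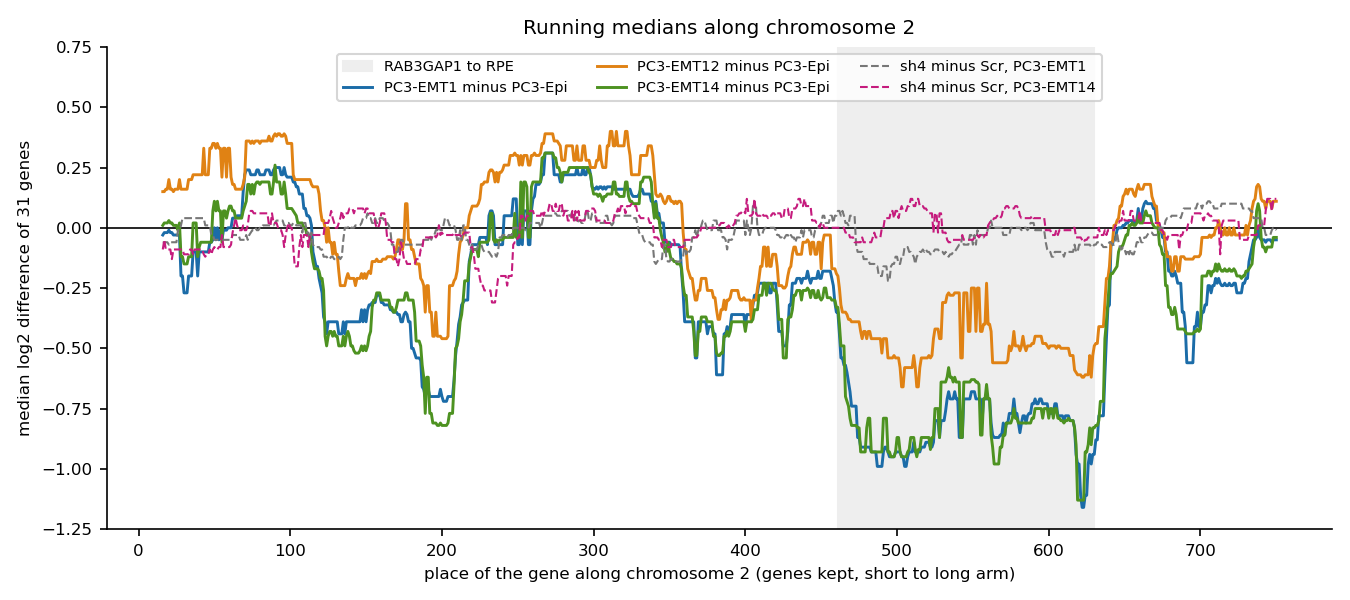
Median log2 difference of 31 neighbouring kept genes (y axis) against the place of the middle gene along chromosome 2 (x axis), for each EMT line minus PC3-Epi (solid) and for sh4 minus Scr in each line (dashed); grey marks the stretch. The EMT curves are lowest in and at the edge of the stretch, PC3-EMT12 runs above the other lines, and the sh4 curves stay between -0.22 and 0.12 inside it.

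Windows as low were found elsewhere in the genome. For the mean of the 3 lines, the windows inside the stretch went from -0.84 to -0.48, and 5 of 22 other chromosomes held a window at or below -0.84, among them chromosome 11 with -1.07 near DYNC2H1 and chromosome 3 with -0.91 near GXYLT2. The EMT difference also went with how many genes lie nearby. Outside chromosome 2, genes were split into 10 equal bins by how many protein-coding genes start within 1 Mb; the sparsest bin had a median of -0.25 and the densest 0.26. Members had between 3 and 26 such genes around them. Kept genes of other chromosomes in that range of density had a median of -0.12, against -0.83 for the members. That the members lie lower follows from their choice by this same difference. The 114 other kept genes of the stretch had a median of -0.67, and the ends of the stretch were set by that difference too. The part of gene density in the members' difference was not tested.

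**Figure D4:**
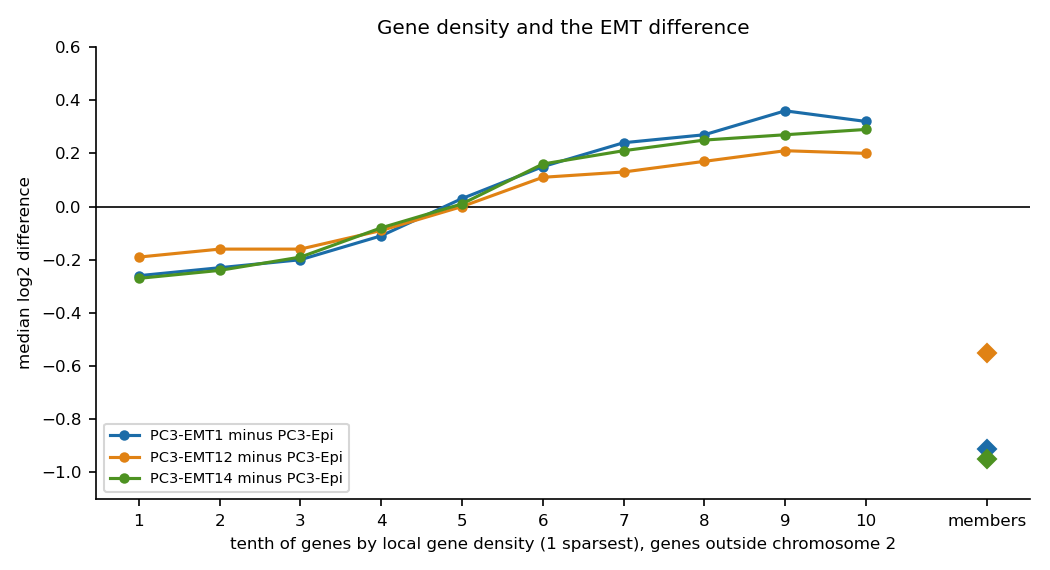
Median log2 difference of each EMT line minus PC3-Epi (y axis) for genes outside chromosome 2 in 10 equal bins of local gene density (x axis, from sparse to dense), with the members' medians as diamonds at the right. Medians go from -0.26, -0.19 and -0.27 in the sparsest bin to 0.32, 0.20 and 0.29 in the densest. The members' medians of -0.91, -0.55 and -0.95 lie below all bins. Members were chosen by low values in this comparison, so their place follows from that choice.

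PC3-EMT12 stood apart from the other EMT lines over the whole stretch, in a comparison that does not involve PC3-Epi. It was the highest of the 3 lines in 52 of 56 members, or 92.9%, where this held for 35.6% of all genes kept. Relative to the mean of PC3-EMT1 and PC3-EMT14, the members were higher in PC3-EMT12 by a median of 0.39, with quartiles of 0.29 and 0.51. The SD of that shift between members was 0.21, against 0.62 for the difference from PC3-Epi. Over all genes kept the same SDs were 0.28 and 0.78, so the smaller spread is not particular to the members. Members that were higher in EMT than in PC3-Epi showed the shift too, by 0.67 in CYBRD1 and 0.75 in OSBPL6. Exceptions were CDCA7, KLF7 and TFPI, at -0.03, -0.12 and -0.24.

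The shift of PC3-EMT12 reached beyond the stretch. On the rest of chromosome 2 its median was 0.18, and over all of chromosome 2 it was 0.23, where the medians of the other chromosomes lay between -0.14 and 0.07. Over all genes kept the median was -0.01. PC3-EMT12 has 1 array, so the shift was not tested, and it is also the line whose ACTB gap, 1.62, was nearest to that of PC3-Epi. The part of RNA quality in the shift was not tested, and no copy number was measured.

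The ZEB1 shRNA comparison, on arrays that the choice of genes did not use, asked whether lowering ZEB1 restores the members. Over the 57 members kept on the transduced arrays, the median of sh4 minus Scr was -0.04 in PC3-EMT1 and 0.03 in PC3-EMT14, against 0.01 and 0.03 over all genes kept there. By direction, 15 members were higher and 19 lower in both lines, or 26.3% and 33.3%, where 35.1% and 28.7% of all genes were, and 23 went opposite ways.

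By limma on the 4 transduced arrays, with the line as a block, 0 of 57 members passed an adjusted p of 0.05, and 0.0% of the 16661 genes tested did, while the intervals of 48 members held 0. At an unadjusted p below 0.05 there were 9 members, or 15.8%, where 15% of all genes were under it. When the untransduced arrays of the same lines were added to the fit, 1 member was called higher, where 0.69% of genes were, and 0 lower, where 0.486% were, with 9 members under an unadjusted 0.05, where 18.6% of all genes were under it. The median width of the intervals was 0.33 to each side.

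**Figure D5:**
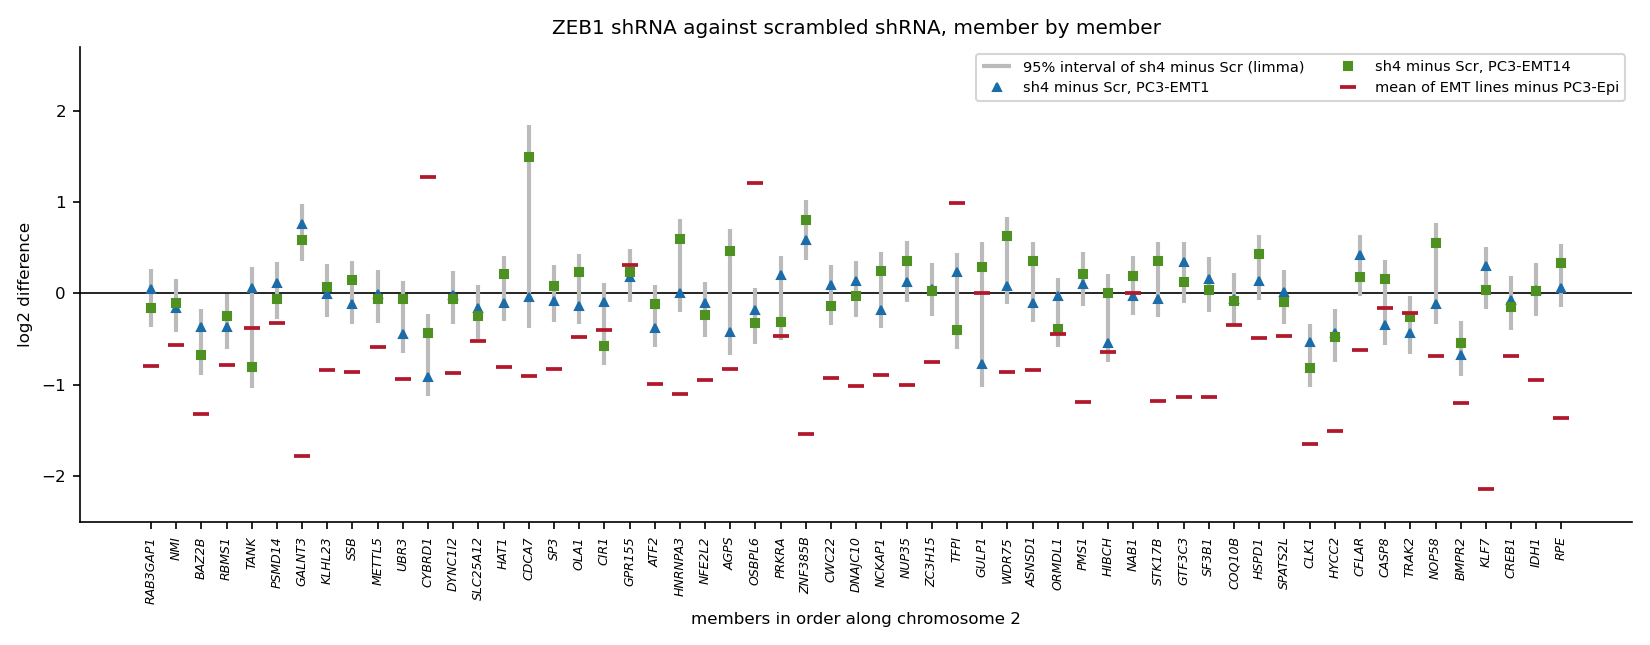
Log2 difference of sh4 minus Scr (y axis) in PC3-EMT1 (triangles) and PC3-EMT14 (squares) for the 57 members kept, in order along chromosome 2 (x axis), with the 95% interval of the limma fit (grey bars) and the mean EMT minus PC3-Epi difference (red dashes). The intervals of 48 members hold 0; the red dashes come from the untransduced arrays, which were scaled apart, so their sizes are not to be set against the bars.

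The member called with 6 arrays was GALNT3. It had 9.88 and 10.01 with sh4 in PC3-EMT1 and PC3-EMT14, against 9.13 and 9.43 with Scr, so both sh4 arrays lay above both Scr arrays. The difference was 0.67 ± 0.11 (SE, limma adjusted p = 0.259 with 4 arrays and 0.0497 with 6), and 0.34 with the mean of its probe sets (adjusted p = 0.254). ZNF385B had 6.00 and 6.46 with sh4, against 5.42 and 5.65 with Scr, a difference of 0.69 ± 0.12 (adjusted p = 0.259 and 0.0653). Its Scr values lay under the brightest bacterial control probe set of their arrays, 5.89 and 6.0, so this difference starts from background.

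Other members had lower values with sh4 in both lines. CLK1 had 7.74 and 7.54 with sh4 in PC3-EMT1 and PC3-EMT14, against 8.28 and 8.37 with Scr, a difference of -0.68 ± 0.13 (limma adjusted p = 0.261). BMPR2 had 7.83 and 8.40 with sh4, against 8.51 and 8.93 with Scr, a difference of -0.61 ± 0.11 (adjusted p = 0.261). HYCC2 and BAZ2B, at -0.46 and -0.53, also had intervals below 0. CYBRD1, higher in the EMT lines, had 6.69 and 6.46 with sh4, against 7.61 and 6.89 with Scr, a difference of -0.67 ± 0.16 (adjusted p = 0.282).

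The member with the largest mean difference, CDCA7, a MYC-responsive gene of the cell cycle, rested on 1 array. It had 9.53 and 9.79 with sh4 in PC3-EMT1 and PC3-EMT14, against 9.57 and 8.29 with Scr, where the Scr array of PC3-EMT14 was lowest. The 95% interval of its difference ran from -0.38 to 1.84. KLF7, the member with the largest EMT difference, stood at 6.86 and 6.71 with sh4, against 6.56 and 6.67 with Scr, and SF3B1 at 11.64 and 11.53 with sh4, against 11.48 and 11.49 with Scr. The intervals were -0.17 to 0.51 for KLF7 and -0.20 to 0.40 for SF3B1.

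ZEB1 binds the E-box motif CACCTG, read as CAGGTG on the other strand, and both forms were searched in the 250 bases before the start sites that RefSeq gives (build GRCh38.p14). Of 91 promoters of 54 members, 12 held the motif, or 13.2%, against 17.5% of all 35116 promoters. Of the 11 such members in the sh4 fit, 3 were higher and 2 lower with sh4 in both lines and 6 went opposite ways, with a median of 0.04. The stretches below are shown because GALNT3 was the member called with 6 arrays and because RPE and STK17B were among the 10 members lowest in the EMT lines; capitals mark the motif, and a match is not a binding site.
GALNT3, chr2:165794288-165794387, minus strand: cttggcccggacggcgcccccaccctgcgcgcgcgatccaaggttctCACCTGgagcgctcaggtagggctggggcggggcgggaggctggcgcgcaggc
RPE, chr2:210002394-210002493, plus strand: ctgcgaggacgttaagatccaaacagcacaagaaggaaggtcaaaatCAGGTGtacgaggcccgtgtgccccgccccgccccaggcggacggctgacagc
STK17B, chr2:196171749-196171828, minus strand: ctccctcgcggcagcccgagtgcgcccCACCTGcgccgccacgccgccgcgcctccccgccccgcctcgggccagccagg

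PC3-EMT1 and PC3-EMT14 were set against each other over 6 arrays, with EMT, Scr and sh4 as a block. The median of PC3-EMT1 minus PC3-EMT14 over the 57 members was 0.02, with a range of -0.45 to 0.84. By limma 0 members were called in either direction, where 1.52% of all genes tested were called lower and 0.3% higher. At an unadjusted p below 0.05 there were 8 members, or 14%, where 16.3% of all genes were under it. TFPI came nearest, with 0.84 ± 0.16 (SE, adjusted p = 0.0508), and was higher in PC3-EMT1 by 0.49 in EMT, 0.71 in Scr and 1.33 in sh4 cells. It passed in 5 of 11 other fits, where its adjusted p ran from 0.0306 to 0.238. BMPR2 and ZNF385B were lower in PC3-EMT1, both by 0.45, with adjusted p = 0.07 and 0.098.

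Genes elsewhere whose products work with a member were called lower about as often as genes in general. Of 124 partners tested from 24 lists, 21 were lower by limma, or 16.9%, and 14 higher, or 11.3%, close to the 15.4% and 13.9% of all genes, and their median was 0.08. Only 1 of 10 partners of SF3B1 was lower, DDX46 with -1.30 ± 0.21 (adjusted p = 0.0112). Of 5 partners of WDR75 in ribosome assembly, HEATR1 and UTP15 fell by 0.97 and 0.76 (adjusted p = 0.00891 and 0.0215). Among 4 partners of the nuclear pore protein NUP35, NUP205 and NUP155 fell by 0.91 and 0.50 (adjusted p = 0.0358 and 0.043). Relatives of SP3 and KLF7 had 3 lower of 7, with KLF3 at -1.58 ± 0.23 (adjusted p = 0.00765). MSH3 and MLH3, mismatch repair partners of PMS1, fell by 1.07 and 0.78 (adjusted p = 0.0119 and 0.0282). The numbers of partners called changed when an EMT line was left out, and the share of all genes called in those fits is not given.

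Among partners of other members, some rose and some fell. HMOX1, a heme oxygenase and target of NRF2, had 8.25, 7.63 and 7.96 in PC3-EMT1, -EMT12 and -EMT14, against 6.52 in PC3-Epi, a difference of 1.43 ± 0.25 (limma adjusted p = 0.0129), and none of the 12 NRF2 partners and targets was lower by the test. CYFIP2 and WASF3 of the WAVE complex, which holds the member NCKAP1, rose by 1.22 and 0.87 (adjusted p = 0.011 and 0.0365). In the tissue factor pathway of TFPI, TFPI2 rose by 1.85 (adjusted p = 0.00134). F3 had 4.21, 4.33 and 3.98 in PC3-EMT1, -EMT12 and -EMT14, against 5.43 in PC3-Epi. It was kept only through PC3-Epi, and its EMT values lay under the bacterial maximum of 4.56. FAS fell by 0.86 and TNFRSF10B rose by 0.90 among the partners of CASP8 and CFLAR (adjusted p = 0.0109 and 0.0141). SPTLC1 fell by 1.11 and ORMDL3 rose by 0.66 around ORMDL1 (adjusted p = 0.00535 and 0.0301).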

How the data were processed

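The authors made the deposited log2 values with RMA from the affy package on Affymetrix arrays with 54675 probe sets, and these values were used without change. RMA draws low signals together, which makes differences of dim genes small. Of the probe sets, 41091 carried 1 gene symbol and gave 19775 genes, ordered and named by a RefSeq gene table (GRCh38.p14); the build behind the probe annotation was not given in the sources used here, so the coordinates given are only those of the RefSeq promoters. The arrays were grouped by the labels. Differences were fitted in R 4.3.3 with limma 3.58.1 (lmFit, eBayes, Benjamini-Hochberg over all genes kept). EMT against PC3-Epi used 4 arrays and 2 residual degrees of freedom (prior 3.87), sh4 against Scr 4 arrays with the line as a block and 1 (prior 2.97), and PC3-EMT1 against PC3-EMT14 6 arrays and 2 (prior 5.38). The number of arrays limits the precision. Replicate numbers are cell line numbers, so they pair sh4 with Scr.

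The members, gene lists, roles and tests were chosen with earlier results of these data known. Named members were the 10 lowest and 5 highest EMT differences, the 4 largest sh4 differences, the 4 farthest apart between lines, those with probe sets of opposite sign and up to 2 partners a list; CREB1, ATF2, NFE2L2, SF3B1, HNRNPA3, NOP58, HSPD1, PSMD14, IDH1, COQ10B, CFLAR, CASP8 and DYNC1I2 were added after their values were seen. The fits were tested on simulated data. The alternatives are named with their effects after these sections.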

Additional observations from a re-analysis of the deposited data

Results flagged for a closer look

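In some results sh4 and Scr cells differed in opposite directions in the 2 lines, and the difference between the lines was not tested. The median of the members was -0.04 in PC3-EMT1 and 0.03 in PC3-EMT14. CDCA7 was at -0.04 in PC3-EMT1 and 1.5 in PC3-EMT14, GULP1 at -0.77 and 0.29, TFPI at 0.23 and -0.40, STK17B at -0.06 and 0.35, and NAB1 at -0.03 and 0.19, each time PC3-EMT1 first. The sh4 array of PC3-EMT14 had an ACTB gap of 2.22 and its Scr array 1.42, while in PC3-EMT1 the gap was 1.44 with sh4 and 1.68 with Scr. The part of RNA quality in these values was not tested.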

How the results depend on the processing

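The median of the members in EMT minus PC3-Epi and the number lower in every line kept their direction, and changed by less than the spread between lines or by under 1.5 times, under all settings tried (no filter, a filter at log2 7, the mean of probe sets, median centring, quantile normalization within each set, 32 added, and each EMT line left out). The number 2-fold lower in every line, 5, became 26 at 1.5-fold, 2 at 3-fold, 1 with the filter at log2 7, 3 with the mean of probe sets and 2 with 32 added, and ran from 5 to 21 when a line was left out, with 21 without PC3-EMT12. Without a filter the median over all genes of the stretch was -0.23. Of the other genes of the stretch, 3 were called higher with the filter at log2 7, and leaving out a line gave 34 to 76 lower, 8 to 28 partners lower and 4 to 23 higher. For sh4 against Scr, with no replicate block 0 members were called, as on 4 arrays with it, and the adjusted p of GALNT3 was 0.427 without the pairing by line and 0.259 with it; the 6-array fit with the replicate block called 1, GALNT3. In PC3-EMT1 against PC3-EMT14, 1 member, TFPI, was called higher with a trend, the filter at log2 7, no filter, median centring or without the Scr arrays. The causes of these changes were not tested. For the fits that leave out a line, the share of all genes called is not given. Their counts are therefore not a result about the stretch or the partners. The shift of PC3-EMT12, tried under settings chosen after seeing the data, ran from 0.31 to 0.39.

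The limits are those of 8 arrays. Each line has 1 array per condition, and PC3-Epi and PC3-EMT12 have no other array. All EMT differences share the PC3-Epi array, and dim genes such as ZNF385B and KLF7 have EMT values at or near the bacterial controls.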
